A study of Homo sapiens with 20 samples.

Results

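The zinc finger genes of human chromosome 19 were examined as a group for their N6-methyladenosine (m6A) peaks in 2 bladder cancer cell lines. Members were the protein-coding genes of chromosome 19 whose symbol is ZNF followed by a number, 249 of the 20046 protein-coding genes of the annotation. The rule itself used only names and positions and no measured value, although the group was picked with earlier results of these data known. A gene was called marked in a library when the summit of at least 1 peak of that library lay in one of its exons. The chromosome has 1227 other protein-coding genes, and 266 further genes with a ZNF symbol lie on other chromosomes.

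The peaks came from methylated RNA immunoprecipitation sequencing, in which fragmented RNA is pulled down with an antibody against m6A and compared with input RNA that was not pulled down. T24, a wild-type human bladder cancer line sensitive to cisplatin, was compared with T24R2, a cisplatin-resistant line made from T24 by serial exposure to the drug and kept in medium with cisplatin. Both lines were harvested at day 3, with 5 pull-down and 5 input libraries each. T24R2 is 1 derived line, so resistance and any other change of that line cannot be told apart. The 10 peak lists held 17203 to 33120 rows each. Of 13 urothelial and epithelial markers KRT7 was marked in all 10 libraries and 9 in none, while the mesenchymal markers ZEB1 and CDH2 were marked in all 10 and VIM in 5 T24 and 4 T24R2 libraries. GATA3, a urothelial transcription factor, was marked in 5 T24 and 0 T24R2 libraries. Of 5 markers of other cell types PECAM1 was marked in all 10. The part of these marker differences in the results below was not tested. A list without a peak does not show that a marker is not expressed.

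Most members encode Krüppel-type proteins, in which C2H2 zinc fingers follow each other in a row and read DNA. Many also carry a KRAB domain, which recruits the corepressor TRIM28 and the histone methyltransferase SETDB1 and silences chromatin, often at transposable elements. The genes lie in tandem clusters made by repeated duplication, and the whole finger array of a gene is usually coded by its last coding exon. m6A is known to gather in long exons and near stop codons, at adenosines in the context DRACH (where D stands for any base but C, R for a purine and H for any base but G).

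The members shared this architecture. In the coding sequences 247 of 249 held at least 1 C2H2 finger, with a median of 12 and up to 36 fingers in ZNF208, and 154 held a KRAB A box pattern. This pattern was strict, so members without it can still have a KRAB box. The coding part of the last coding exon had a median of 1523 bases, against 161 in all other protein-coding genes, and was at least 1000 bases long in 219 members (88.0%).

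Sequence at the summits is shown for the members marked in 1 line only and for the 5 members with the strongest peaks. Each line gives the DRACH 5-mer nearest to the median summit, in capitals, with 11 bases on each side, on the strand of the gene in hg38. Such 5-mers occurred 21.1 times per kb in the members' last coding exons, so one near a summit is a description and not a mapped site.
ZNF98, 3′UTR, minus strand of chr19:22391380-22391406: acacaatgctcAAACCttattgcacag
ZNF671, last coding exon, minus strand of chr19:57721393-57721419: aaggagggcagAGACTctgtgaaaagc
ZNF606, last coding exon, minus strand of chr19:57978902-57978928: tgcccatcagaGAACTcacacgggaga
ZNF229, last coding exon, minus strand of chr19:44429842-44429868: agtgcccatctTAACAgacatcaaaga
ZNF865, 3′UTR, plus strand of chr19:55616941-55616967: cgacaggctcaAGACTgaatcactccc
ZNF324B, 3′UTR, plus strand of chr19:58456931-58456957: gagggggatgcGGACAtggggtaggat
ZNF649, last coding exon, minus strand of chr19:51890950-51890976: caggactcattAGACAtcagaaaattc
ZNF570, last coding exon, plus strand of chr19:37485097-37485123: atactggagagAGACCctatgaatgta
ZNF850, last coding exon, minus strand of chr19:36750478-36750504: agtatggctcaGAACTtacacaacagc
In ZNF649 and ZNF850 all 10 libraries had a summit within 50 nt of the place chosen and in ZNF570 9 did, whereas for ZNF98 only 2 of its 5 marked libraries did. The exon of ZNF649 shown is also annotated as an exon of ZNF577, so its peak can belong to either.

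One 5-mer came with the protein. Consecutive fingers are joined by a short conserved linker, threonine, glycine, glutamate, lysine and proline, and the members' last coding exons held 1446 copies of it in 213 genes. The most frequent ways of coding it are shown because most of them hold the DRACH 5-mer AAACC, in capitals where present.
326 copies in 98 members: actggagagAAACCc
206 copies in 73 members: actggagagAAACCt
71 copies in 31 members: actggtgagAAACCc
64 copies in 52 members: actggagagAAACCa
44 copies in 31 members: actggagagaagccc
Of the 1446 copies 1113 (77.0%) held AAACC. In turn, of the 2212 AAACC 5-mers in these exons 50.3% lay in a linker of this form and 65.0% in codons for glutamate, lysine and proline.

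The first question was how often members were marked. At least 1 library marked 227 of the 249 (91.2%), and all 10 libraries marked 184 (73.9%). Between 1 and 9 libraries marked 43 members, and 22 had no summit in any library. Of the other genes of chromosome 19 20.9% were marked in all 10 libraries, of the ZNF genes on other chromosomes 68.0%, and of 1432 other genes with a last coding exon of at least 1000 coding bases 40.5%.

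Per library, T24 marked 202 to 214 members and T24R2 marked 204 to 210, a mean over the 10 libraries of 83.5% ± 1.57 (SD, n = 10). In the same libraries 32.3% ± 3.06 of the other chromosome 19 genes were marked, a difference of 51.2 percentage points that was above 0 in 10 of 10 libraries (two-sided exact sign-flip permutation test, adjusted p = 0.0023). Against genes with a long last coding exon, of which 49.2% ± 1.51 were marked, the difference was 34.3 points (10 of 10 libraries, same exact test, adjusted p = 0.0023). Against ZNF genes elsewhere, of which 78.0% ± 2.33 were marked, it was 5.45 points (10 of 10 libraries, same exact test, adjusted p = 0.0023). Members were thus the most often marked of the 4 groups compared. The libraries read largely the same transcripts, so these tests speak of the spread between libraries and not between genes.

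**Figure D1:**
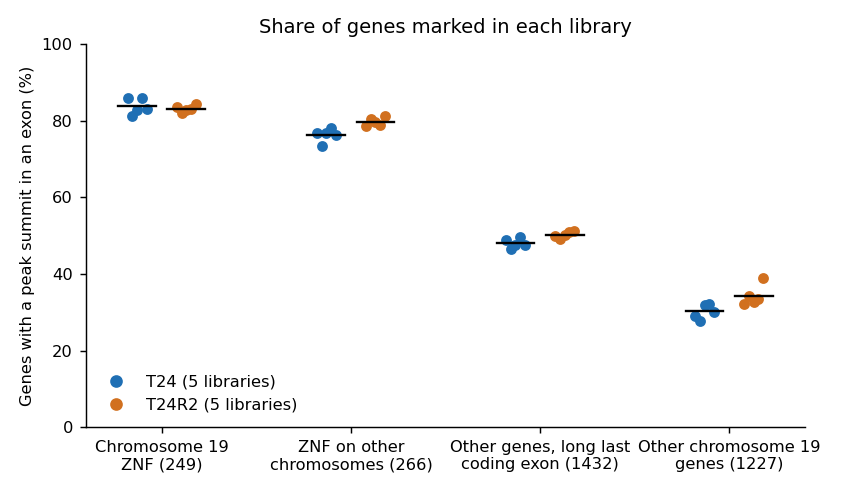
Share of genes with a peak summit in an exon (%, y axis) in each of 5 T24 (blue) and 5 T24R2 (orange) libraries for 4 gene groups, with the group mean as a black line. Every library sits above 81% for the chromosome 19 ZNF genes and below 40% for the other chromosome 19 genes.

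The share of members marked throughout was alike over the number of fingers and the length of the last coding exon. All 10 libraries marked 135 of 183 members with at least 10 fingers (73.8%) and 49 of 66 with fewer (74.2%). The last coding exon was at least 1000 bases long in 219 members, of which 161 (73.5%) were marked in all 10, and of the 30 members with a shorter one 23 (76.7%) were. With the KRAB pattern the count was 117 of 154 (76.0%) and without it 67 of 95 (70.5%). Members without the pattern do not all lack a KRAB box for certain, since the pattern was strict. These shares are descriptions and were not tested.

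The 22 unmarked members included both ZNF208 and ZNF729, the members with the most fingers (36 and 34). Also unmarked were ZNF536, a regulator of neuronal differentiation whose last coding exon has 5 coding bases, and ZNF582, known for DNA methylation in cervical cancer. 6 members of 1 cluster, though not an unbroken run of it, ZNF208, ZNF676, ZNF729, ZNF99, ZNF723 and ZNF728, were unmarked, as were 6 in the cluster at the end of the long arm, namely ZNF582, ZNF667, ZNF471, ZNF835, ZNF154 and ZNF135. The other 10 were ZNF556, ZNF414, ZNF560, ZNF569, ZNF546, ZNF541, ZNF114, ZNF534, ZNF578 and ZNF536. In a peak list, a transcript that is absent and a transcript without m6A cannot be told apart.

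Peaks in members were placed in the long last exon. Of all summits in members, 64.5% ± 1.61 (SD, n = 10) lay in the coding part of the last coding exon and 27.0% ± 1.03 in the 3′UTR. The 5′UTR held 2.37%, earlier coding exons 1.60% and exons of other transcripts of the gene 4.47%. In all other protein-coding genes the last coding exon held 20.2% ± 1.86 of the summits, 44.3 points less (10 of 10 libraries, exact sign-flip test, adjusted p = 0.0023). Against genes with a long last coding exon (56.5%) the members were higher by 8.09 points, and against ZNF genes elsewhere (41.4%) by 23.1 points, each in 10 of 10 libraries (same exact test, adjusted p = 0.0023). ZNF genes elsewhere had a shorter last coding exon, with a median of 1094.5 coding bases against 1523 in members. The part of this length in the difference was not tested. The 3′UTR summits of members lay a median of 441 nt past the stop codon, and 53.2% ± 2.67 of them within the first 500 nt.

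Within last coding exons of at least 1000 bases, cut into 10 equal bins from the 5′ end to the stop codon, the summits were uneven. Bin 2 held 17.6% ± 1.25 of them (SD, n = 10) and bin 5 held 5.47% ± 0.873. Bin 10, next to the stop codon, held 10.8% ± 1.69. ZNF genes elsewhere had the same high bin 2, 18.0% ± 2.24, and 13.4% ± 1.43 in bin 10. Other genes with a long last coding exon had 9.71% ± 0.525 in bin 2 and their highest share, 15.1% ± 0.776, in bin 10.

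**Figure D2:**
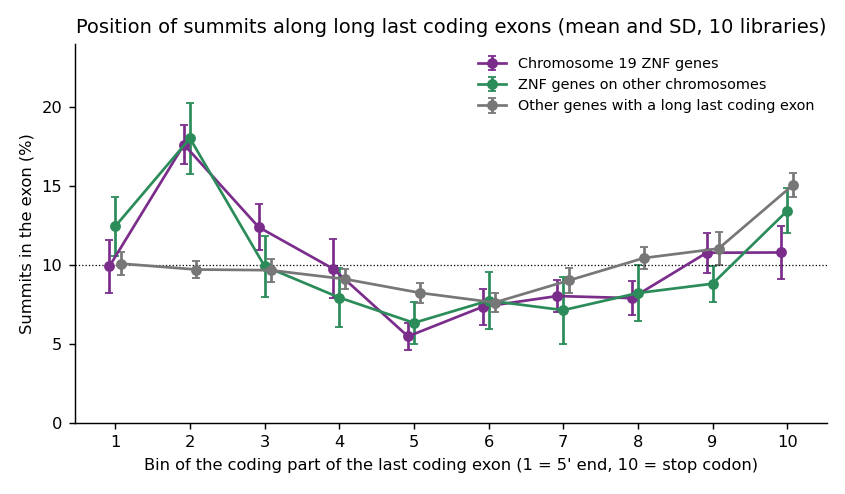
Share of summits in long last coding exons (%, y axis) that fell in each of 10 equal bins of the exon's coding part (x axis, from the 5′ end to the stop codon), as mean and SD over 10 libraries for 3 gene groups; the dotted line marks an even spread. Both ZNF groups peak in bin 2, at 17.6% and 18.0%, and the other genes in bin 10, at 15.1%.

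The stretch from the first to the last finger, the finger array, held fewer summits than its length would give. It covered 72.6% ± 0.384 of the coding bases of the last coding exons that had summits, and held 63.6% ± 1.47 of the summits in them. The difference of -8.96 points had the same sign in 10 of 10 libraries (two-sided exact sign-flip test, p = 0.00195, the smallest that 10 libraries allow). The tests of this comparison and of the 5-mer densities below were added after the data had been examined. The authors kept only uniquely mapped reads, whose part in either result was not tested.

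The 5-mers around summits followed in part the makeup of the exons. Within 50 nt of a summit 94.5% of member windows held a DRACH 5-mer on the gene's strand, against 89.9% in other protein-coding genes (difference 4.55 points, 10 of 10 libraries, exact sign-flip test, adjusted p = 0.0023). On the opposite strand of the same windows the libraries ran from 71.4% to 78.3% in members and from 68.4% to 73.2% in other genes. The opposite-strand shares were not tested. AAACC was in 35.6% of member windows and in 10.1% of the others, a difference of 25.5 points (10 of 10 libraries, same exact test, adjusted p = 0.0023). GGACT, a frequent m6A context in human mRNA, was in 10.7% against 17.7%, lower by 7.05 points in 10 of 10 libraries (same exact test, adjusted p = 0.0023). GAACT differed by 0.488 points, which did not pass (7 of 10 libraries, exact test, adjusted p = 0.215).

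The exons themselves differed in the same 5-mers. AAACC occurred 5.82 times per kb in the members' last coding exons and 1.17 times per kb in those of all other genes, and GGACT 0.676 and 1.04 times. In the last coding exons of ZNF genes on other chromosomes AAACC occurred 4.33 and GGACT 0.685 times per kb, so this makeup was not particular to chromosome 19. Set against the whole exons they lay in, weighted by where the summits were, the windows at the summits held fewer AAACC (4.93 against 5.71 per kb, lower in 10 of 10 libraries, exact sign-flip test, adjusted p = 0.0037). They held more TGACT, 1.21 against 0.587 per kb, and more GGACA, 1.48 against 0.832 per kb, each in 10 of 10 libraries (same exact test, adjusted p = 0.0037). GGACT was also higher, 1.02 against 0.765 per kb, in 8 of 10 libraries (exact test, adjusted p = 0.0148). All DRACH 5-mers together stood at 24.9 against 21.4 per kb, higher in 10 of 10 libraries (exact test, adjusted p = 0.0037). So AAACC was frequent at summits of members beside other genes but less frequent there than in the rest of the same exons.

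The authors' fold enrichment, the ratio of pull-down over local input at a peak, was ranked within each list as a percentile from 0 to 100, since lists differ in length. The median percentile of member peaks was 62.9 ± 2.23 (SD, n = 10), against 48.9 ± 1.60 in other protein-coding genes (difference 14.0, 10 of 10 libraries, exact sign-flip test, adjusted p = 0.0023). Other genes with a long last coding exon lay between, at 56.5 ± 3.05, and were not tested against members here. ZNF genes elsewhere stood at 59.9 ± 2.29, lower by 3.05 in 8 of 10 libraries (exact test, adjusted p = 0.021). With rows of at least 4-fold enrichment alone that last difference was 1.53 and did not pass (adjusted p = 0.243, exact test).

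Of the 184 members marked in all 10 libraries, the mean percentile of the strongest peak ranged from 40.6 to 98.5 with a median of 80.2, against 73.1 over all 5514 genes marked in all 10. ZNF865 was highest, at 98.5 ± 1.57 (SD, n = 10), with a fold enrichment of 16.3 to 33.5. The others among the 10 highest were ZNF324B (96.0), ZNF649 (95.8), ZNF570 (95.7), ZNF850 (95.4), ZNF441 (94.6), ZNF577 (94.3), ZNF285 (94.3), ZNF625 (94.1) and ZNF480 (93.2), with SDs of 2.80 to 6.80 that exceed the steps between neighbours. For ZNF625, 10 of 20 summits also lay in an exon of a gene outside the group. The strongest peak of ZNF577 can in part be that of ZNF649, whose exon is annotated in both genes. The 3 lowest were ZNF738 (50.7 ± 16.3), ZNF146 (45.7 ± 20.7), a protein made almost only of fingers, and ZNF492 (40.6 ± 16.5). Their spread over libraries was wide, and ZNF146 ran from 9.55 to 76.9. For ZNF738, 10 of 17 summits also lay in an exon of a gene outside the group.

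**Figure D3:**
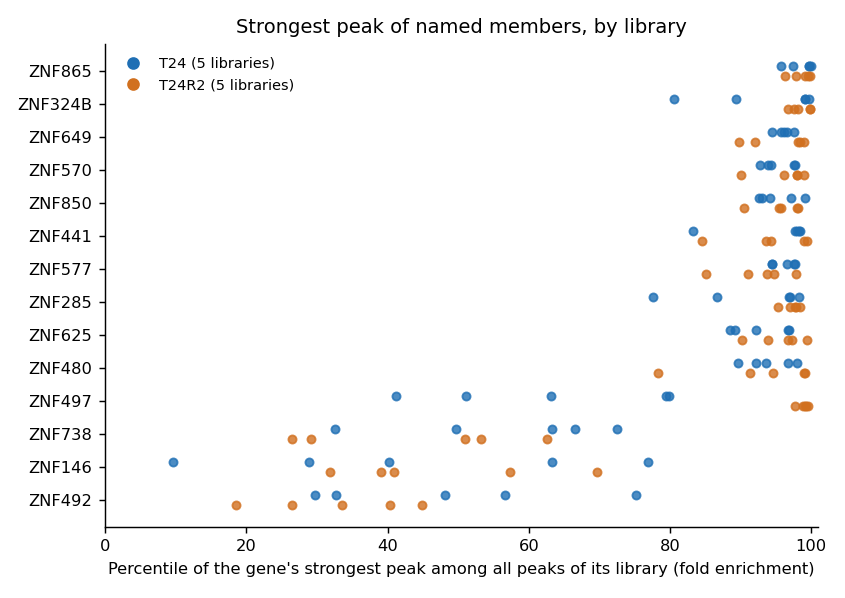
Percentile of the fold enrichment of a gene's strongest peak among all peaks of its library (x axis) for the 10 highest and 3 lowest members marked in all 10 libraries and for ZNF497, with 1 point per library (blue T24, orange T24R2). The 10 highest stay above 77 in every library, the 3 lowest spread from 9.55 to 76.9, and ZNF497 is between 41.2 and 79.9 in T24 and at 97.6 or above in T24R2.

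Members with a known role lay between these ends. ZNF91 and ZNF93, repressors of SVA and LINE-1 retrotransposons, had mean percentiles of 65.0 ± 22.1 and 62.1 ± 13.2 (SD, n = 10). ZNF274, which brings SETDB1 to the 3′ ends of zinc finger genes, stood at 75.1 ± 21.0, and 10 of its 11 summits were in its last coding exon. ZNF331, an imprinted gene, had 11 of 24 summits there and 11 in the 3′UTR, at 77.9 ± 17.7. ZNF350, a partner of BRCA1, and ZNF420, a regulator of p53, stood at 80.7 ± 8.37 and 70.9 ± 13.6. ZNF224, a repressor of the aldolase A gene, and ZNF675, an inhibitor of TRAF6 signalling, stood at 74.2 ± 16.1 and 70.5 ± 14.8. For ZNF224, 18 of 19 summits also lay in an exon of a gene outside the group, so its peak can belong to either. All of these were marked in all 10 libraries. ZNF473, a component of histone pre-mRNA processing, was marked in 4 T24 and 5 T24R2 libraries at 31.2 ± 15.3 over the 9 that marked it.

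Merged over the libraries, the members' summits fell in 513 regions, of which 235 (45.8%) were called in all 10 libraries and 78 (15.2%) in only 1. Over all 43676 regions these shares were 21.9% and 27.9%. Of the 235, 163 lay in the last coding exon, 55 in the 3′UTR, 5 in the 5′UTR, 1 in an earlier coding exon and 11 in an exon of another transcript. Among the 184 members marked throughout, 57 had at least 2 such regions. ZNF577, ZNF404, ZNF446 and ZNF616 each had 3, and ZNF324B had 2. Those of ZNF577 include the region of ZNF649, whose exon is annotated in both genes. For ZNF446, 8 of 28 summits also lay in an exon of a gene outside the group.

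A summit in the last coding exon was found in 180 of the 184. The 4 exceptions were ZNF146, ZNF507 and the read-through genes ZNF625-ZNF20 and ZNF559-ZNF177, whose exons are shared with their neighbours. ZNF507 had 40 summits, 10 of them in the 3′UTR, and a last coding exon of 364 coding bases.

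The second question was whether the lines differed. T24 libraries marked 208.6 ± 5.27 members and T24R2 libraries 207 ± 2.24 (SD, n = 5 each), a difference of -1.6 that was within the spread (two-sided exact permutation test, p = 0.587, adjusted p = 0.734). The share of member summits in the last coding exon was 65.1% ± 0.799 and 64.0% ± 2.09 (exact permutation test, adjusted p = 0.734). The median percentile was 62.4 ± 2.45 and 63.5 ± 2.11 (exact permutation test, adjusted p = 0.734). Marked members had 2.06 ± 0.143 and 2.10 ± 0.210 summits each (exact permutation test, adjusted p = 0.762).

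The share of summits in coding genes that lay in members was lower in T24R2, 2.63% ± 0.178 against 3.02% ± 0.100 in T24 (difference -0.397 points, exact permutation test, p = 0.00794, the smallest that 5 against 5 allow, adjusted p = 0.0397). The ranges of the lines did not overlap. Summits in members numbered 428.8 ± 33.0 per T24 and 434.0 ± 47.5 per T24R2 library, while summits in all other protein-coding genes numbered 13774 ± 1294 and 16192 ± 2623. With equally many peaks taken from each library, 10.4 fewer members were marked in T24R2 (exact permutation test, adjusted p = 0.0198) and the share differed by -0.381 points (adjusted p = 0.0198, exact test). List length thus moved with the line, and its part in these differences was not tested beyond this equal number. The direction for members marked depended on the processing. At a −log10 q of at least 5, and at 10 or more, more members were marked in T24R2 and not fewer.

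Of 12 differences between members and other groups, 2 changed between the lines past the threshold. The members' lead over ZNF genes elsewhere in the share marked was 7.53 points in T24 and 3.36 in T24R2, a change of -4.18 points (exact permutation test, p = 0.00794, adjusted p = 0.048). ZNF genes elsewhere were marked in 76.2% ± 1.79 of cases in T24 and 79.8% ± 1.08 in T24R2, and members in 83.8% ± 2.12 and 83.1% ± 0.898. The lead over genes with a long last coding exon was 35.7 points in T24 and 32.8 in T24R2, a change of -2.84 points (exact permutation test, p = 0.00794, adjusted p = 0.048). Without summits that also lie in an exon of another gene these changes were -3.35 and -1.13 points and did not pass (exact test, adjusted p = 0.190 and 0.552). The lead over other chromosome 19 genes was 53.5 and 48.8 points, a change of -4.70 that did not pass (exact permutation test, adjusted p = 0.0635). The lead over ZNF genes elsewhere in the share of summits in the last coding exon was 21.5 and 24.7 points, a change of 3.21 that did not pass either (exact permutation test, adjusted p = 0.190).

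Gene by gene, 206 members were marked in equally many libraries of each line, 20 in more of T24 and 23 in more of T24R2. A presence in 5 of 5 libraries of T24R2 and 0 of 5 of T24 was found for 1 of the 227 members marked anywhere, beside 2.39% of all 10237 marked genes. The reverse was found for 3 members, beside 1.51% of all genes. By Fisher's exact test 15 members (6.61%) had an unadjusted p under 0.05, 9 more often marked in T24 and 6 in T24R2, against 8.08% of all genes. None passed after adjustment over all genes (smallest adjusted p = 0.203), nor did any of the 10237 genes.

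**Figure D4:**
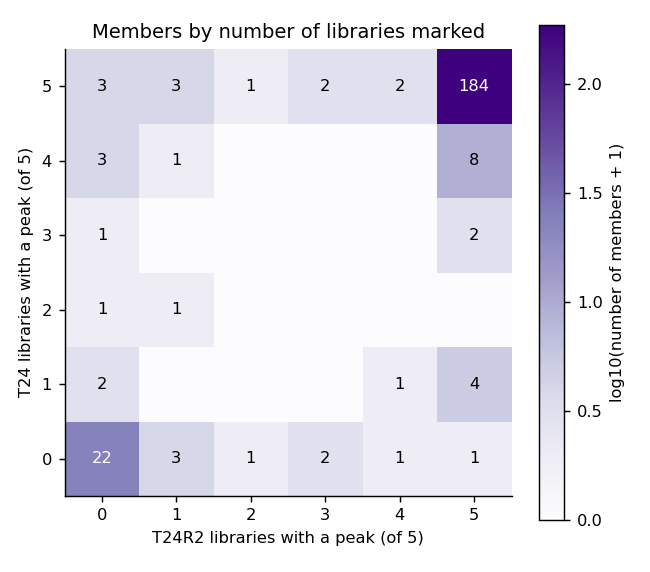
Number of members (printed in each square, shaded on a log10 scale) by the number of T24 libraries (y axis) and T24R2 libraries (x axis) that marked them. The corners for all and for no libraries hold 184 and 22 of the 249 members, and the corners for 1 line only hold 3 (T24) and 1 (T24R2).

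ZNF98 was the member marked in T24R2 alone, with 13 fingers and 1463 coding bases in its last exon. Its strongest peak stood at percentiles 84.3, 73.6, 87.4, 76.2 and 68.5 in the 5 T24R2 libraries and no T24 library had a summit in it. It had 7 summits in the last coding exon and 3 in the 3′UTR, in regions chr19:22392450-22392992 and chr19:22391146-22391826.

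ZNF671, whose promoter is known to be DNA-methylated in urothelial tumours, was marked in T24 alone. The percentiles in the 5 T24 libraries were 95.2, 93.8, 76.5, 86.2 and 70.0, with fold enrichments of 8.38 to 17.9. ZNF606 was also marked in T24 alone, at 78.1, 52.0, 98.7, 78.7 and 97.3. ZNF229, also marked in T24 alone, stood at 81.4, 60.0, 48.5, 41.9 and 60.4. These values put 2 of the 3 well above the middle of their lists, and each gene's line-only region lay in the last coding exon (chr19:57720908-57721644, chr19:57978142-57979291 and chr19:44429712-44430352). For each of the 4 genes Fisher's exact p was 0.00794 before adjustment.

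Of the 513 member regions 4 had peaks in 5 of 5 T24R2 and 0 of 5 T24 libraries, beside 3.02% of all regions, and 4 the reverse, beside 1.05% of all regions. The first 4 were both regions of ZNF98, 1 in the 3′UTR of ZNF320 and 1 in the last coding exon of ZNF112. The other 4 were those of ZNF671, ZNF606 and ZNF229 and 1 in the last coding exon of ZNF844. All 16 summits of ZNF844 also lay in exons of genes outside the group, so that region can belong to either. ZNF320 itself was marked in all 10 libraries, ZNF112 in 1 T24 and 5 T24R2 libraries and ZNF844 in 5 and 1. The regions of ZNF112 and ZNF320 were weak, with mean percentiles of 24.4 and 37.4. At an unadjusted Fisher's exact p under 0.05 there were 30 member regions (5.85%, against 9.21% of all), and none passed after adjustment (smallest adjusted p = 0.195).

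The strength of the strongest peak was compared for the 5514 genes marked in all 10 libraries. With limma 21 genes (0.381%) were higher in T24R2 and 5 (0.0907%) lower at an adjusted p under 0.05, and none of the 184 members was among them. At an unadjusted p under 0.05 limma had 14 members (7.61%), 12 higher and 2 lower in T24R2, against 14.8% of all genes tested. Among the 12, ZNF177 and the read-through gene ZNF559-ZNF177 had the same values and rest on the same peaks. The median difference was 1.08 percentile points over the members and 4.38 over all 5514 genes. On the log2 scale of the fold enrichment limma called 1 member, ZNF497. On that scale 50 of the 5514 genes were called higher in T24R2 and 18 lower.

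ZNF497, with 14 fingers, is named because it was nearest to the threshold, after its values were seen. The strongest peak stood at percentiles 51.1, 41.2, 79.4, 63.2 and 79.9 in T24 and at 98.8, 99.2, 99.3, 97.6 and 99.5 in T24R2. The lines did not overlap. The difference was 35.9 percentile points with a standard error of 8.06 (limma, adjusted p = 0.0504). The fold enrichment ran from 6.14 to 11.3 in T24 and from 20.1 to 25.8 in T24R2. This peak lay in the last coding exon at chr19:58356651-58357767, a region with no summit in an exon of another gene, although 13 of the gene's 26 summits lay in such exons elsewhere. ZNF433 came next, at 48.9 ± 12.4 and 84.1 ± 7.65 (SD over 5 libraries), which did not pass (limma, adjusted p = 0.135).

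Along the chromosome 238 members fell into 9 blocks, each of at least 5 members with gaps of at most 1 Mb between neighbours. The 2 smallest held 5 members each. In the block from ZNF554 to ZNF77, near the end of the short arm, 4 were marked in every library, as were 4 in that from ZNF302 to ZNF792. The blocks from ZNF557 to ZNF846 (16 members) and from ZNF653 to ZNF791 (26) follow on the short arm, with 14 and all 26 members marked in at least 1 library. The largest, from ZNF628 to ZNF446 at the end of the long arm, held 59, of which 53 were marked in at least 1 library. The block from ZNF175 to ZNF331 held 40, of which 35 were marked in all 10 libraries.

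In 2 blocks the lines differed by more than the spread. The block from ZNF101 to ZNF254 (chr19:19668796-24129968, 37 members) includes ZNF91 and ZNF93. The T24 libraries marked 29, 26, 26, 28 and 27 of its members and the T24R2 libraries 23, 25, 24, 23 and 24. No T24R2 library reached the lowest T24 library. The difference was -3.4 members (exact permutation test, p = 0.00794, adjusted over the 9 blocks p = 0.0357). It came from ZNF43 (5 T24 and 1 T24R2 libraries), ZNF506 and ZNF486 (4 and 0 each), ZNF626 (3 and 0), ZNF730 (4 and 1), ZNF90 and ZNF726 (5 and 3 each) and ZNF257 (1 and 0), against ZNF98 (0 and 5) and ZNF85 (0 and 1). Members of this block are close duplicates of each other and the authors kept uniquely mapped reads, whose part in these counts was not tested.

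The block from ZNF565 to ZNF573 (chr19:36182276-37817300, 26 members) went the other way. The T24 libraries marked 22, 22, 21, 22 and 22 members and the T24R2 libraries 23, 23, 23, 24 and 24, with no overlap. The difference was 1.6 members (exact permutation test, p = 0.00794, adjusted p = 0.0357). It rested on ZNF382 and ZNF568 (0 and 3 libraries each), ZNF345 (4 and 5) and ZNF540 (0 and 1). With equally long peak lists it was 0.2 members (exact test, adjusted p = 1), and at a −log10 q of at least 5 neither block passed. In the remaining 7 blocks the differences ran from -2 to 1.8 members and none passed after adjustment, among them ZNF302 to ZNF792 and ZNF575 to ZNF296.

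**Figure D5:**
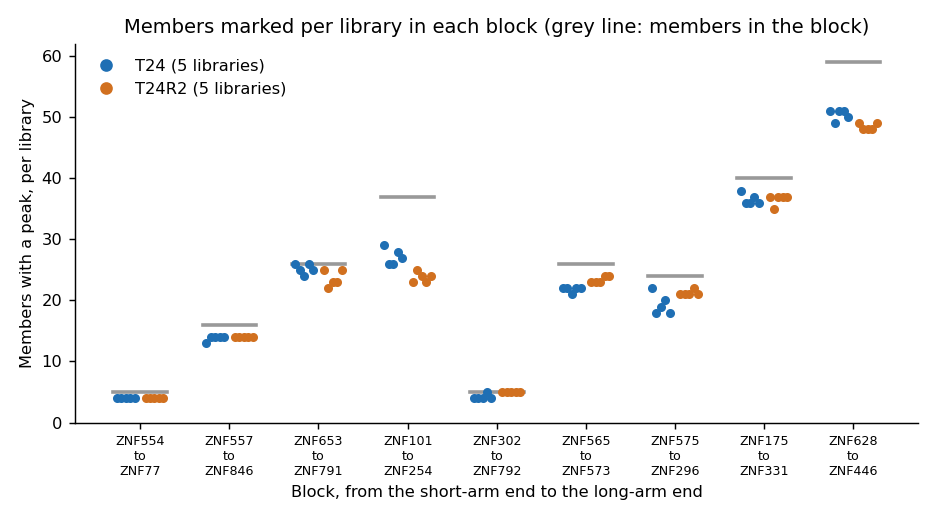
Members marked in each library (y axis, count) in each of the 9 blocks, ordered along the chromosome, with the number of members in the block as a grey line (blue T24, orange T24R2, 5 libraries each). The lines separate in the block from ZNF101 to ZNF254, at 26 to 29 against 23 to 25, and in that from ZNF565 to ZNF573, at 21 or 22 against 23 or 24.

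The genes of the repressor machinery that KRAB zinc fingers recruit were looked at as partners. Of 18 such genes 14 were marked in at least 1 library, against 50.6% of all protein-coding genes outside the group, and 6 in all 10, against 26.9%. The 6 were SETDB1, ATRX, MORC2, MPHOSPH8, TASOR and ATF7IP, and the 4 without a summit were CBX3, HDAC1, HDAC2 and DNMT1. TRIM28, the corepressor that binds the KRAB domain and itself a gene of chromosome 19, was marked in 1 library of each line. SETDB1, the histone H3 lysine methyltransferase, had the highest mean percentile of the list, 92.6 ± 6.01 (SD, n = 10). The HP1 gene CBX1 was marked in 0 T24 and 5 T24R2 libraries at a mean percentile of 22.5, a pattern that 2.39% of all marked genes had.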

How the data were processed

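The authors aligned reads to hg38 with STAR 2.7.0 and GENCODE annotation, kept uniquely mapped reads without duplicates with SAMtools 1.10 and called peaks per library, pull-down over input, with MACS2 3.0.0a6, per the labels and the study's methods. The deposited lists give each peak's start, end and summit, the authors' fold enrichment (a ratio), and −log10 p-value and −log10 q-value (the lowest −log10 q was 2.00). They hold no read counts, so depth is unknown and no interval is given. The inputs entered only through the authors' peak calls. Of 231465 rows 229672 lay on named chromosomes of hg38 and none ended past its chromosome.

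Genes, exons and coding sequences came from GENCODE 44 (Ensembl canonical or MANE Select transcript). The lists carry no strand, and 330 of 4314 summits in members (7.65%) also lay in an exon of a gene outside the group. Fingers and the KRAB pattern were found by script in coding sequences translated from hg38, because no protein table was used. Lines were compared by exact permutation over 252 assignments of the 10 libraries. Gene groups were compared by exact sign flips of the 10 within-library differences (1024 patterns), presence by Fisher's exact test, and strength by limma 3.58.1 with a trended prior in R 4.3.3, all two-sided with Benjamini-Hochberg adjustment within each family. The limma step was tested on simulated data for T24R2 against T24. Of 200 genes among 5514 shifted by 20 percentile points it recovered 29 (14.5%) with 0 false calls. Shifts of that size or smaller would thus mostly be missed. Python 3.11.15 was used for the rest.

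Replicates were numbered by the titles. Whether they came from separate cultures was not given in the sources used here, so p-values may measure technical spread. Members and lists were chosen with earlier results of these data known. Genes named were those marked in 1 line only, the 10 highest and 3 lowest by mean percentile among those marked in all 10 libraries, the 5 with most regions in all 10, those with line-only regions or called by limma, 11 with known roles, the ends of each block, and members marked throughout without a summit in the last coding exon. Others are named where a count rests on them. Alternatives were thresholds on q and fold, equal list lengths, other rules for assigning peaks, other cut-offs, a replicate block, and each library left out in turn.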

Additional observations from a re-analysis of the deposited data

Results flagged for a closer look

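Of 34 groups of 5 libraries examined for a library far from the rest, 3 held one, where chance alone gives about 1 in 20. T24R2 replicate 4 had a median percentile of member peaks of 67.2, while the next highest library of that line was at 63.1. The difference in the share of windows with a DRACH 5-mer between members and other genes was 2.88 points in T24 replicate 1, the lowest of its line, and 5.90 points in T24R2 replicate 4, the highest of its line.

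The lead of members over other gene groups in the share marked differed between the lines. Against ZNF genes elsewhere it was lower in T24R2 by 4.18 points (a change of -4.18), and against genes with a long last coding exon the change was -2.84 points (exact permutation test of the difference, adjusted p = 0.048 for each). Leaving out any 1 library kept both past the threshold. With a −log10 q of 5 or more the changes were -3.92 and -1.43 points, and with a −log10 q of 10 or more they were -0.616 and 2.96 points, none of which passed (smallest adjusted p = 0.0952, exact test). The cause was not tested.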

How the results depend on the processing

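Of 800 values recomputed under an alternative, 724 stayed on the same side of the threshold in the same direction, or close to the reported value, and so did the comparisons of members with other groups except where named here. At a −log10 q of at least 5, 2.6 more members were marked in T24R2, no block passed, and the blocks ZNF101 to ZNF254 and ZNF565 to ZNF573 stood at -2.2 and 2.6 members. With a −log10 q of 10 or more the difference in members marked was 17, the share of peaks in members differed by -0.349 points, the last coding exon share by 0.715 points and the median percentile by -1.98. At that threshold 0 genes and 0 regions were in T24 alone, no block passed (1.2 and 3.2 members), and the change against long last coding exons was 2.96 points. At a fold enrichment of at least 4 the share of peaks differed by -0.452, the percentile against ZNF genes elsewhere by 1.53, 2 regions were in T24R2 alone, and no block passed (-3.4 and 1.6 members). With equal list lengths members marked differed by -10.4, the median percentile by -0.457, peaks per marked member by -0.152, 8 genes and 8 regions were in T24 alone, 2 regions in T24R2 alone, and the second block differed by 0.2. Without summits shared with other genes members marked differed by 1.4 and the GAACT share by -0.00512. Limma called 1 member, ZNF497, on log2 fold enrichment and when a peak had only to overlap an exon. With at least 4 against at most 1 library, 7 genes were in T24R2 and 10 in T24, and 24 and 17 regions. With half-covered regions 9 and 2 were line-only. Shares over all genes or regions are not given for the alternatives, those leaving out a library included. Their counts of line-only members are therefore no result about members in particular.

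Leaving out each library gave -0.452 to -0.336 for the share of peaks, which missed the threshold without any 1 T24 library (adjusted p = 0.0794 each, exact permutation test of 4 against 5), and -0.0386 to 0.0968 for peaks per marked member, below 0 without T24R2 replicate 5. It gave 1 to 3 genes in T24R2 alone (3 without T24 replicate 1 or 4), 3 to 5 in T24 alone, 4 to 9 regions in T24R2 alone, and 0 or 1 member called by limma, ZNF497. Same-numbered libraries of the lines showed little likeness (correlation of deviations -0.0372 to 0.115, and only T24R2 replicate 5 was most like its own number). Whether they were handled in pairs was not given, and these correlations cannot settle it. With a replicate block the share of peaks differed by -0.397 (exact sign-flip test, adjusted p = 0.312, and 5 pairs cannot go below p = 0.0625), no block passed, and limma called 0 members. Depth is unknown, so an unmarked gene may have too few reads.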
